A study of Mus musculus with 12 samples.

Results

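Expression in the hearts of diabetic mice given angiotensin IV was compared with expression in the hearts of untreated diabetic mice. The comparison used 8 of the 12 arrays of the study, chosen by their labels: the 4 of the group DM_AngIV and the 4 of the group DM. Each array was taken as 1 mouse, as the sample titles number the replicates and do not say more. Every gene with a symbol was included, by its brightest probe set, which gave 19505 genes. Mice of both groups had been injected with streptozotocin, which kills the beta cells that make insulin, on 5 successive days and were kept when fasting glucose reached 16.7 mM or more 2 weeks later. The labels name no further treatment of DM mice and no infusion of vehicle. DM_AngIV mice were infused with angiotensin IV at 2.88 mg/kg/day, the high dose by its label, between the end of week 8 and the end of week 24. The remaining 4 arrays, of the group NC, held mice injected with vehicle on 5 days in place of streptozotocin. They are given here as a reference level, and they also enter the estimate of spread behind each SE and p-value. All samples carry the label 6 months, and whether this is an age or the time since induction, and the strain and sex of the mice, were not given in the sources used here. The tissue of every sample was labelled myocardium, with no chamber named.

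Angiotensin IV is a fragment of angiotensin II that lacks its first residues. It binds the membrane enzyme Lnpep, also called insulin-regulated aminopeptidase or the AT4 receptor, which travels with the glucose transporter GLUT4 in muscle and fat. Diabetic hearts are known for a shift of fuel from glucose to fatty acids, for interstitial matrix and for stiff relaxation, and the series names FoxO1, autophagy, apoptosis and fibrosis as its subjects. Lnpep was not analysed here.

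Arrays of both groups were alike in overall signal. Values are on the log2 scale, so a difference of 1 is a doubling, and array medians lay between 4.12 and 4.19. Between 42.8% and 43.3% of genes on each array exceeded 4.96, the 95th percentile of 246 reporter control probe sets, which is called the background below. An array has no read depth, and the precision here is limited by the number of arrays. Across genes, pairs of DM arrays correlated with r between 0.984 and 0.990, and pairs of DM_AngIV arrays with r between 0.988 and 0.990. Among the 8372 genes whose mean was above background, 60.7% had the larger spread in DM, with a median SD of 0.154 in DM and 0.128 in DM_AngIV (n = 4 each). Ventricular muscle genes were at high levels in both groups, with list means between 10.64 and 10.71 in DM and between 10.73 and 10.85 in DM_AngIV for 17 markers. Atrial muscle transcripts were present in some hearts only: Myl7, a regulatory light chain of atrial myosin, exceeded background on DM replicates 1, 2 and 4 and on no DM_AngIV array.

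No single gene passed the adjusted threshold between DM_AngIV and DM. With limma and Benjamini-Hochberg adjustment over all 19505 genes, 0 genes (0%) reached an adjusted p below 0.05, and the smallest adjusted p was 0.253. With limma fitted to the DM and DM_AngIV arrays only, 0 genes passed and the smallest adjusted p was 0.440. An unadjusted p below 0.05 was found for 1459 genes (7.48%), of which 776 (3.98%) were higher and 683 (3.5%) lower in DM_AngIV. For 977 genes (5.01%) the 4 DM_AngIV values lay entirely on 1 side of the 4 DM values, with 548 (2.81%) higher and 429 (2.2%) lower. Among genes with a mean above background, those without overlap were mostly higher, 406 (4.85%) against 160 lower (1.91%). The typical difference was small, with a median absolute log2 fold change of 0.107 over all genes, and 11 genes differed by more than 1. These 11 fall into a few sorts. F830016B08Rik, Gm4841, Igtp and Irgm2 are interferon-inducible GTPases and were all higher. Fkbp5, Dusp4 and Lonrf3 were also higher, while the atrial muscle genes Myl7, Myl4, Sln and Mybphl were lower. The p-values set each difference against the spread between arrays within groups, taken over all 3 groups.

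**Figure D1:**
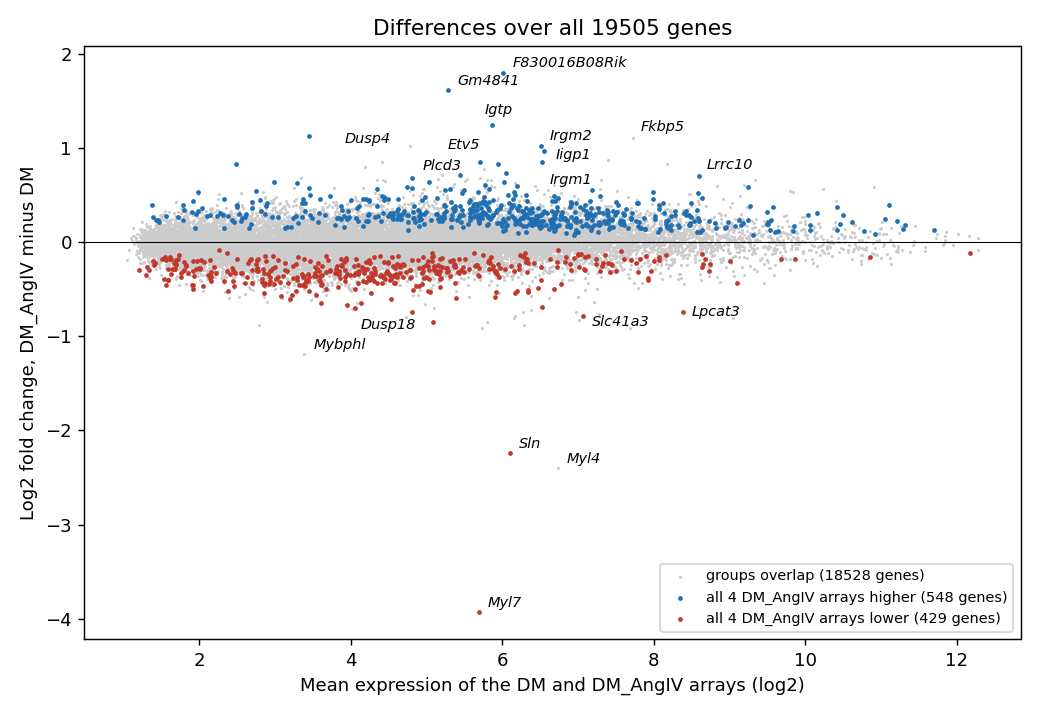
The log2 fold change of each of the 19505 genes, DM_AngIV minus DM, is plotted against its mean log2 expression over the 8 arrays. Blue and red points are the 548 and 429 genes whose groups did not overlap, and the GTPases stand at the top while Myl7, Sln and Myl4 lie below -2.

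Of the 7 genes higher in DM_AngIV by more than 1, 4 were immunity-related GTPases. These proteins are made in response to interferons, above all interferon gamma, and attack the membranes around pathogens inside cells. The set was put together after the values were seen, so its counts are a description. Of 16 family members listed, 12 were measured, and Tgtp1, Ifi47, Iigp1b and Gm4070 were not analysed here. All 12 had a positive log2 fold change with a median of 0.725, beside -0.0007 for all genes. For 8 of the 12 the groups did not overlap, all with DM_AngIV higher, against 2.81% of all genes and 4.85% of those above background. The family has near-identical copies, so a probe set can collect signal from more than 1 member. Its genes lie in clusters, with Igtp, Irgm2, Irgm1, Tgtp2 and Gm12250 on chromosome 11.

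Because these members were higher together, the promoters of those on chromosome 11 were searched for the 2 motifs through which interferons are known to act. The GAS motif, the gamma-activated sequence of genes that interferon gamma induces, was searched as TTCNNNGAA. The ISRE motif, bound by interferon regulatory factors and the ISGF3 complex, was searched as GAAANNGAAA, both on either strand and with overlap allowed, in the 250 bases before the start site. Promoter sequences were taken from RefSeq, build GRCm38.p6. Results are given for 8 of the 16 listed genes, all on chromosome 11, and promoters of the others are not reported here. The last 120 bases before the start site are shown, 5′ to 3′ along the gene, with motif matches in capitals, for the 5 measured members on chromosome 11 without overlap and for Gm5431, a measured member that has no match.
Igtp promoter (chr11:58199436-58199555, plus strand): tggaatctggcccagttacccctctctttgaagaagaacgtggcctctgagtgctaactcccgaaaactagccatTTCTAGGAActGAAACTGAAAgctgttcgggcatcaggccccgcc
Irgm2 promoter (chr11:58214857-58214976, plus strand): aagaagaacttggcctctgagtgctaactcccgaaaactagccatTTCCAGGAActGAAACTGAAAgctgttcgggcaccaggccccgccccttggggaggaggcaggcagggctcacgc
Tgtp2 promoter (chr11:49064213-49064332, minus strand): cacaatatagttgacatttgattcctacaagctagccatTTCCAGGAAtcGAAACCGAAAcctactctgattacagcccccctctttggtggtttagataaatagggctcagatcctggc
Irgm1 promoter (chr11:48871421-48871540, minus strand): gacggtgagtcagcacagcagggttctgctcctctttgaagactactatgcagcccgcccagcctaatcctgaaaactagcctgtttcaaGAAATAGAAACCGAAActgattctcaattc
Gm12250 promoter (chr11:58183723-58183842, plus strand): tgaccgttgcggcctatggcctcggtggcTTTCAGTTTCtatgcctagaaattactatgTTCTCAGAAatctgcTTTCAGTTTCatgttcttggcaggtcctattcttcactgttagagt
Gm5431 promoter (chr11:48902153-48902272, minus strand): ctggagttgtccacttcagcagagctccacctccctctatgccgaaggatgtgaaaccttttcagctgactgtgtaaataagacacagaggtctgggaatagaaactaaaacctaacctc

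Of the 8 promoters, 5 held a GAS match, 6 held an ISRE match and 5 held both. These counts leave out F830016B08Rik, Gm4841 and Iigp1, which were also higher without overlap. Among 32851 promoters of the same length, 7.02% held a GAS match, 2.98% an ISRE match and 0.332% both. In Igtp, Irgm2, Tgtp2 and Tgtp1 the ISRE match began 11 bases after the GAS match began, a spacing found in 5 promoters in all (0.0152%). This spacing was chosen after the sequences were seen. Promoters of related gene copies are not independent: those of Igtp and Irgm2 share an identical run of 38 bases, and those of Tgtp1 and Tgtp2 one of 27. Irgm1 held 2 overlapping ISRE matches and no GAS match. Gm12250 held 2 ISRE matches, both read on the opposite strand, on either side of a GAS match. Gm5431 had no match and a log2 fold change of 0.11 ± 0.17 (SE), and Ifi47, also without a match, was not analysed here. Whether a match goes with a difference was not tested. A match is a description of the letters and not evidence that a factor was bound there in these hearts.

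Igtp, also known as IRGM3, measured 5.07, 5.35, 5.58 and 4.98 on the 4 DM arrays and 6.36, 5.84, 7.13 and 6.63 on the 4 DM_AngIV arrays. Every DM_AngIV value was above every DM value, a log2 fold change of 1.24 ± 0.21 (SE), or 2.37-fold (limma adjusted p = 0.253). The NC hearts lay between 5.34 and 5.60, so the untreated diabetic hearts were not above them. Irgm2, a regulatory member that sits on Golgi membranes, measured 5.95, 5.93, 6.02 and 6.10 in DM and 7.01, 6.47, 7.68 and 6.93 in DM_AngIV. The difference was 1.02 ± 0.19, or 2.03-fold (limma adjusted p = 0.253). The 4 DM values of Irgm2 were close together and the DM_AngIV values spread more widely (SD 0.07 and 0.50).

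Irgm1, which protects the cell's own membranes from the effector GTPases, measured 6.06, 6.07, 6.31 and 5.95 in DM against 7.09, 6.40, 7.36 and 6.96 in DM_AngIV. Its log2 fold change was 0.85 ± 0.16 (limma adjusted p = 0.253). Iigp1, also called Irga6, an effector that coats pathogen vacuoles, measured 5.81, 6.14, 6.17 and 6.18 in DM and 6.92, 6.47, 7.65 and 7.11 in DM_AngIV. That difference was 0.96 ± 0.20 (limma adjusted p = 0.362). The lowest DM_AngIV value of both genes came from replicate 2 and was still above the highest DM value.

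The largest differences in the family belonged to members with provisional names, which the rule for named genes left out and which are named here after their values were seen. F830016B08Rik measured 4.24, 5.35, 5.63 and 5.26 in DM and 6.97, 5.96, 8.01 and 6.71 in DM_AngIV, a log2 fold change of 1.80 ± 0.35, or 3.48-fold (limma adjusted p = 0.253). It had the highest positive log2 fold change of all 19505 genes. Gm4841 measured 4.16, 4.77, 4.28 and 4.69 in DM, all at or below background, and 6.07, 5.25, 7.04 and 6.00 in DM_AngIV. It was at least 2.19-fold higher, taking DM at the background level, with a fitted log2 fold change of 1.62 ± 0.28 (limma adjusted p = 0.253). Tgtp2, a T cell-specific GTPase by name, differed by 0.60 ± 0.21 (adjusted p = 0.611), and Gm12250, known as Irgb10, by 0.55 ± 0.23 (adjusted p = 0.643). Both had DM_AngIV values that did not overlap with DM. For Gm12250 this was nearly a tie, with a lowest DM_AngIV value of 5.2342 and a highest DM value of 5.233. The other 4 members, Gm4951, Gvin1, Gm5431 and Irgc1, had log2 fold changes of 0.31, 0.16, 0.11 and 0.02 with overlapping groups.

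The DM_AngIV hearts differed among themselves in the same order for most of these genes. Replicate 2 had the lowest DM_AngIV value in 8 of the 8 members without overlap, and replicate 3 the highest in 7 of 8, the exception being Tgtp2. Without DM_AngIV replicate 2, 5 genes passed the adjusted threshold: Gm4841, Igtp and Irgm1 with limma adjusted p = 0.00836, Irgm2 with 0.0149 and F830016B08Rik with 0.0344. All 5 belong to this family. Replicate 2 had the lowest DM_AngIV value in each of them, so its omission was bound to enlarge these differences. The 5 genes are therefore not separate support. Without DM_AngIV replicate 4, 1 gene passed, Slamf7, a receptor of immune cells that stayed below background throughout (limma adjusted p = 0.0442). The family's median stayed between 0.65 and 0.91 over 23 alternative settings, and it was 0.69 without the arrays with atrial signal, when DM replicate 3 is the only DM array left.

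**Figure D2:**
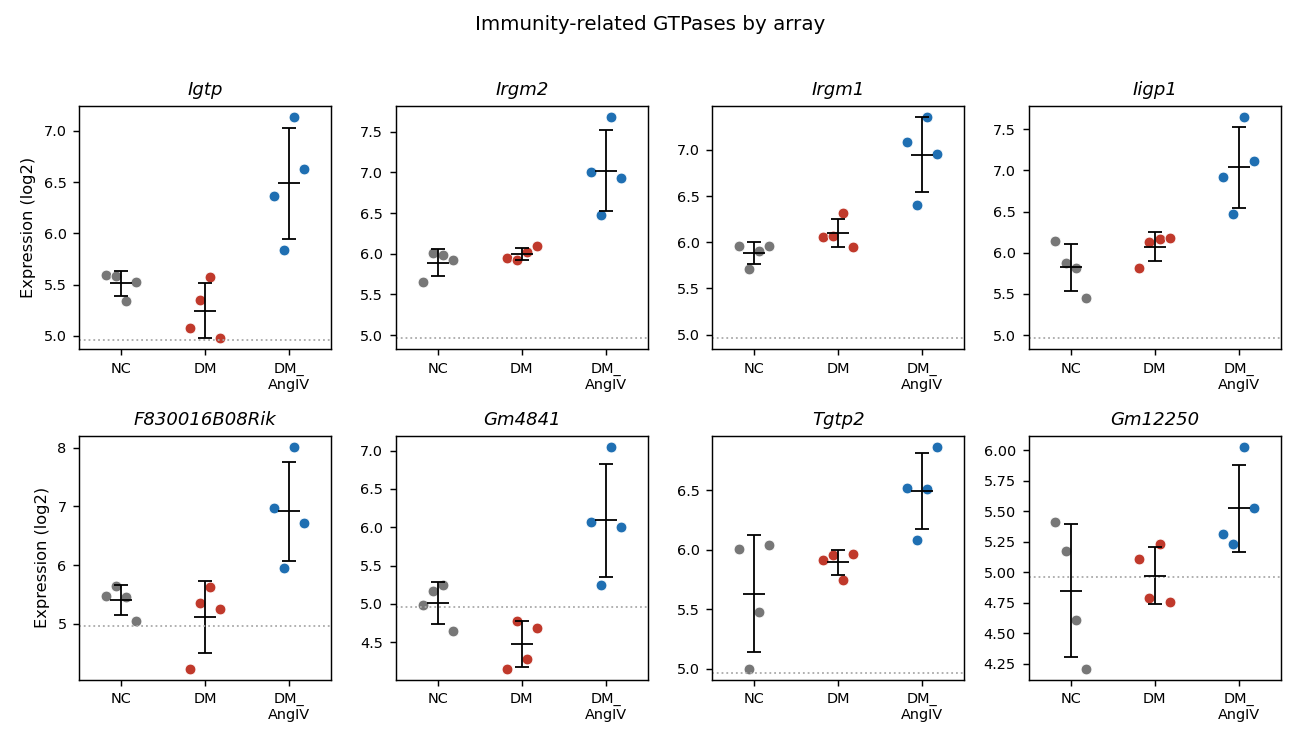
Log2 expression of 8 immunity-related GTPases on each array, by group, with bars for the mean and SD of the 4 arrays and a dotted line at the background of 4.96. In all 8 panels the 4 DM_AngIV points lie above the 4 DM points, and except for Gm12250 they also lie above the 4 NC points.

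Other parts of the interferon pathway differed less. Of 17 ligands, receptors and factors listed after the values were seen, 16 were measured and 9 had a positive value, with a median of 0.05. Ifng, the interferon gamma gene itself, was not above background on any array, with values between 2.22 and 2.84 in DM and between 2.27 and 2.64 in DM_AngIV. Jak2, a kinase of the interferon gamma receptor, measured 6.24, 6.07, 5.65 and 5.68 in DM and 6.31, 6.49, 6.38 and 6.29 in DM_AngIV, a difference of 0.46 ± 0.14 without overlap (limma adjusted p = 0.521). Tyk2, a kinase of the interferon alpha receptor, differed by 0.37 ± 0.14, also without overlap (adjusted p = 0.62). Irf9, the DNA-binding part of ISGF3, was at or below background in DM and at least 1.19-fold higher in DM_AngIV, with adjusted p = 0.513. Irf1, a factor that interferon gamma induces strongly, differed by only 0.05 (adjusted p = 0.954). Socs1, a feedback inhibitor of the same receptor, was not above background in either group and had a log2 fold change of -0.50.

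Downstream genes had mostly positive values. Of 19 measured genes of class I antigen presentation, 14 had a positive value, with a median of 0.22. Of the 19, 2 were higher without overlap (2.81% of all genes, 4.85% of those above background). H2-K1, a classical class I heavy chain, measured 8.97, 8.63, 8.54 and 8.60 in DM and 9.28, 8.99, 9.39 and 8.93 in DM_AngIV, so that the groups met only at their edges (log2 fold change 0.46 ± 0.13, limma adjusted p = 0.511). B2m, the light chain of all class I molecules, measured 11.08, 10.88, 10.90 and 10.78 in DM and 11.50, 11.11, 11.47 and 11.16 in DM_AngIV. That difference of 0.40 ± 0.11 was without overlap (adjusted p = 0.511). H2-T22, a non-classical class I gene, differed by 0.56 ± 0.16 without overlap (adjusted p = 0.513). The peptide transporter Tap1 had 0.45, the immunoproteasome subunit Psmb10 0.38 and the checkpoint ligand Cd274 0.55, with overlapping values in each. Psmb9, another immunoproteasome subunit, had -0.07.

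Of 6 measured guanylate-binding proteins, larger GTPases with the same inducers, 5 had a positive value, with no member without overlap and a median of 0.29, or 0.07 without the arrays with atrial signal. Gbp4 had the highest, at 0.44 ± 0.20 (limma adjusted p = 0.654). Genes known mainly for the type I interferon response did not differ in a common direction: Ifit1 had 0.66 and Eif2ak2 0.46, but Isg15 had -0.19, Oas1a -0.33 and Ifitm3 -0.24. Over the 45 measured genes of the interferon response list, which also holds Igtp, Irgm1 and Irgm2, 31 had a positive value, with a median of 0.12. Markers of immune cells are given beside these values. None of 14 measured lymphocyte markers had a mean above background, and their list mean lay between 3.02 and 3.21 in DM and between 3.05 and 3.20 in DM_AngIV. The list mean of 17 macrophage and monocyte markers lay between 5.28 and 6.20 in DM and between 5.40 and 5.89 in DM_AngIV. The part of these cells in the differences was not tested. In bulk tissue, fewer cells of a type and less RNA per cell cannot be told apart.

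Among other genes without overlap whose higher group had a mean above background, the largest positive differences were those of Plcd3, Etv5, Kyat3, Lonrf1, Lrrc10 and Pcx. Lonrf3 had a larger fitted value of 1.13 without overlap, but its DM_AngIV mean of 4.02 was below background. Plcd3, a phospholipase C that splits the membrane lipid PIP2, measured 5.60, 5.60, 5.04 and 4.90 in DM and 5.78, 5.97, 6.03 and 6.74 in DM_AngIV (log2 fold change 0.85 ± 0.21, limma adjusted p = 0.469). Lrrc10, a leucine-rich repeat protein of heart muscle sarcomeres, measured 8.16, 8.68, 8.19 and 7.99 in DM and 8.86, 8.93, 9.005 and 9.01 in DM_AngIV. Its 4 DM_AngIV values were nearly equal (SD 0.07), and the difference was 0.70 ± 0.14 (limma adjusted p = 0.253). NC hearts had lower levels of Lrrc10 than both, between 7.61 and 7.96.

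Etv5, an ETS family transcription factor, measured 6.01, 6.19, 5.09 and 4.83 in DM and 6.21, 6.46, 6.54 and 6.25 in DM_AngIV, so the gap to DM replicates 1 and 2 was small (0.83 ± 0.28, limma adjusted p = 0.605). Lonrf1, a RING finger protein, measured 5.37, 5.29, 4.82 and 4.87 in DM and 5.97, 5.59, 6.09 and 5.55 in DM_AngIV, a difference of 0.72 ± 0.19 (adjusted p = 0.488). Both genes were lowest in NC, with means of 4.59 and 4.42.

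For 2 metabolic genes the DM_AngIV mean was near the NC mean. Kyat3, a kynurenine aminotransferase, measured 5.30, 5.47, 6.21 and 5.72 in DM and 6.46, 6.24, 6.30 and 6.65 in DM_AngIV, with means of 6.42 in NC, 5.68 in DM and 6.41 in DM_AngIV. The difference from DM was 0.73 ± 0.17 (limma adjusted p = 0.469), but it was 0.20 without the arrays with atrial signal. Pcx, the mitochondrial pyruvate carboxylase, was below background on all DM arrays, between 4.16 and 4.77, and between 4.93 and 5.35 in DM_AngIV. It was at least 1.14-fold higher (adjusted p = 0.521). Ppm1l, a protein phosphatase with very even DM values between 4.02 and 4.12, had 0.56 ± 0.11 with both groups below background (limma adjusted p = 0.253).

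Lower genes included lipid, transport and signalling genes with no overlap between groups. Lpcat3, which loads polyunsaturated fatty acids onto phospholipids, measured 8.46, 8.75, 9.10 and 8.71 in DM and 7.67, 8.10, 8.16 and 8.11 in DM_AngIV. Its log2 fold change was -0.74 ± 0.14 (limma adjusted p = 0.253), and NC hearts lay between 8.41 and 8.58. Gngt2, a gamma subunit of heterotrimeric G proteins, measured 5.86, 5.45, 5.70 and 5.76 in DM and 5.05, 5.07, 5.09 and 5.18 in DM_AngIV, a difference of -0.59 ± 0.11 (limma adjusted p = 0.253). With a robust variance prior that follows the expression level, the adjusted p of Lpcat3 and Lrrc10 was 0.0504, the smallest of that fit and just outside the threshold.

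Slc41a3, a magnesium transporter of mitochondria, had a stepwise pattern of group means: 8.12 in NC, 7.45 in DM and 6.67 in DM_AngIV. It measured 7.21, 6.97, 7.93 and 7.70 in DM and 6.73, 6.62, 6.55 and 6.79 in DM_AngIV, a difference of -0.78 ± 0.17 (limma adjusted p = 0.408). Klhdc8a, a kelch domain protein, had the same order, with means of 5.81, 5.17 and 4.43, and was at least 1.16-fold lower in DM_AngIV than in DM (adjusted p = 0.511). Dusp18, a dual-specificity phosphatase, was level in NC and DM, at 5.59 and 5.51, and had a mean of 4.66 in DM_AngIV, a difference of -0.85 ± 0.19 (adjusted p = 0.468). Alpl, the tissue-nonspecific alkaline phosphatase, measured 6.21, 6.02, 6.27 and 6.28 in DM and 5.92, 5.16, 5.80 and 5.59 in DM_AngIV (-0.58 ± 0.15, adjusted p = 0.488).

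**Figure D3:**
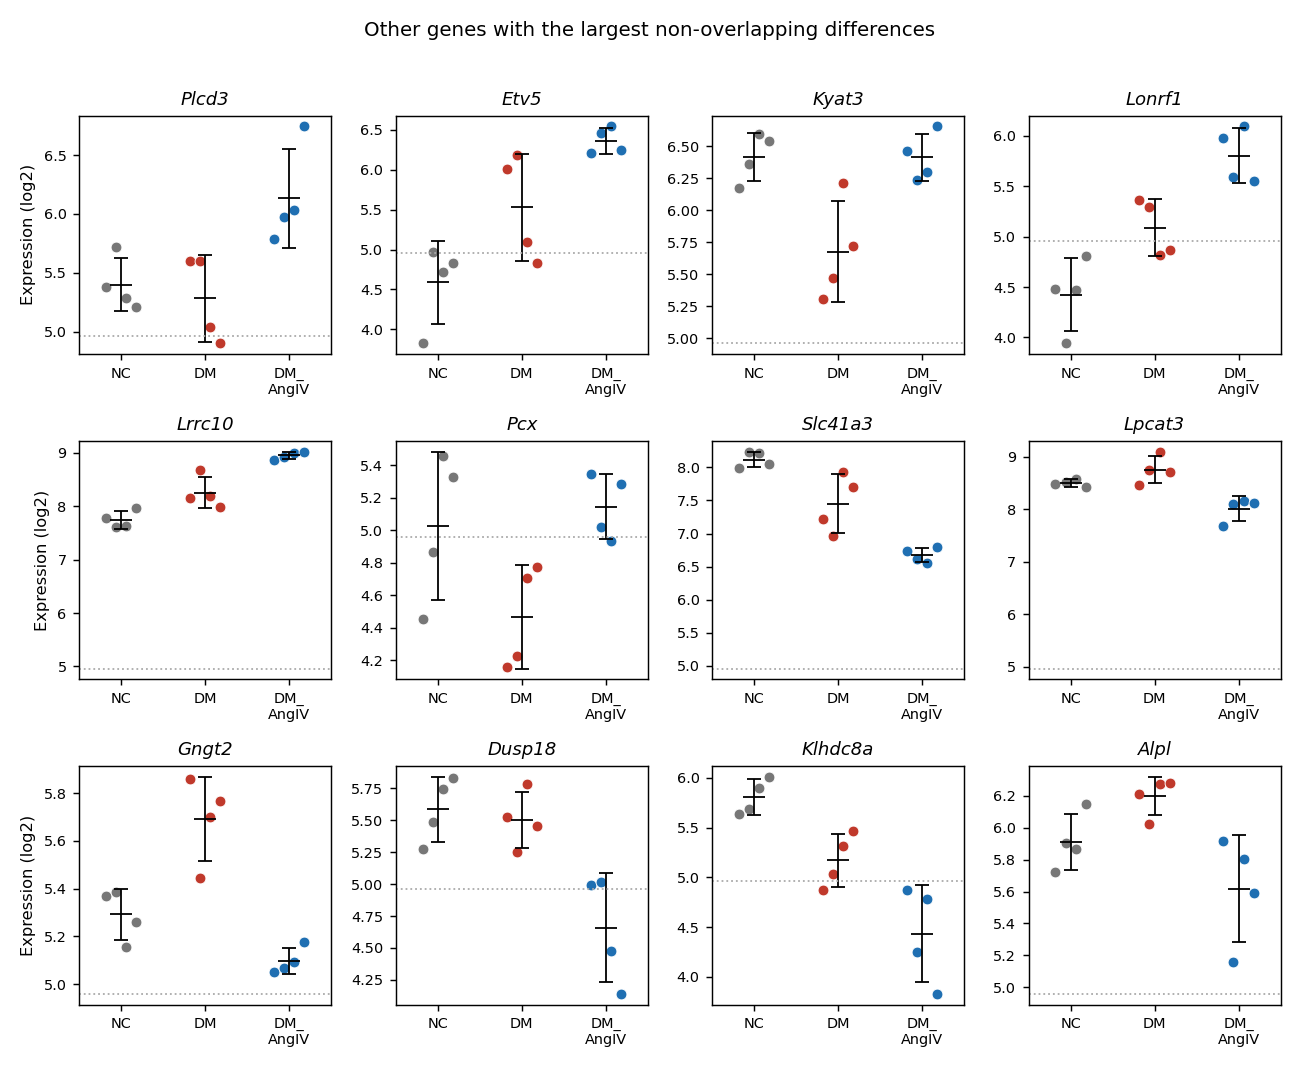
Log2 expression on each array of 12 genes whose DM and DM_AngIV arrays did not overlap, with bars for the mean and SD of 4 arrays and a dotted line at background. Lrrc10 and Gngt2 have the tightest DM_AngIV values, the DM_AngIV values of Kyat3 overlap those of NC, and those of Slc41a3 lie below both other groups.

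Matrix genes were mostly lower, and several atrial muscle transcripts were lower too. Of 41 measured collagens, 32 had a negative value and the median was -0.11. For 2 of them, Col6a1 and Col5a1, DM_AngIV was lower without overlap (2.2% of all genes), Col5a1 with both groups below background. Col3a1, the fibrillar collagen of compliant tissue, measured 6.45, 6.62, 6.91 and 6.95 in DM and 6.63, 5.88, 5.73 and 5.83 in DM_AngIV. Its log2 fold change was -0.72 ± 0.20 (limma adjusted p = 0.511), with DM_AngIV replicate 1 inside the DM range. The NC hearts, between 6.72 and 7.51, were not below the DM hearts. Col15a1, a basement membrane collagen, had -0.43 ± 0.21, Col6a1 and Col6a2 of the pericellular microfibrils -0.36 and -0.37, and Col1a1, the main collagen of scar, -0.23 ± 0.16.

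Of 48 measured matrix glycoproteins and collagen-modifying enzymes, 30 had a negative value, with a median of -0.05, and 4 were lower without overlap (2.2% of all genes). These were Postn, Prelp, Loxl1 and Emilin1, the last below background in both groups. Postn, periostin, a product of activated fibroblasts, measured 7.16, 6.81, 6.64 and 6.89 in DM and 6.59, 6.31, 6.45 and 5.39 in DM_AngIV (-0.69 ± 0.33, limma adjusted p = 0.666). Prelp, a proteoglycan that anchors basement membranes, measured 6.65, 6.26, 6.25 and 6.60 in DM and 5.97, 5.74, 6.17 and 5.72 in DM_AngIV (-0.54 ± 0.21, adjusted p = 0.624). Loxl1, a cross-linker of elastic fibres, had -0.53 ± 0.14 and Mfap5, a component of microfibrils, -0.57 ± 0.20. In NC, Postn and Prelp were highest on replicate 1, at 7.76 and 7.09, which was also the array with the highest Myl7. Mfap5 and Col3a1 were highest there too, at 6.96 and 7.51, while Loxl1 was highest on NC replicate 3, at 6.20.

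Myl7 measured 8.86, 9.68, 3.97 and 8.10 on the DM arrays and 3.94, 3.58, 3.53 and 3.84 on the DM_AngIV arrays, at least 6.47-fold lower in DM_AngIV (limma adjusted p = 0.596). Sln, sarcolipin, an atrial inhibitor of the calcium pump, measured 7.65, 8.83, 5.16 and 7.28 in DM and lay between 4.83 and 5.09 in DM_AngIV (-2.24 ± 0.79, adjusted p = 0.617). Myl4, the atrial essential light chain, had -2.40 ± 0.82 and Mybphl, an atrial myosin-binding protein, was above background on 1 DM array and on no DM_AngIV array. DM replicate 3, without atrial signal, was close to the DM_AngIV level in each of Myl7, Sln and Myl4. The list mean of 13 atrial markers lay between 5.00 and 6.86 in DM and between 5.15 and 5.35 in DM_AngIV, while Bmp10, an atrial hormone-like factor, was not above background in either group. Nppa, the atrial natriuretic peptide, which stressed ventricles also make, measured 9.999, 10.51, 5.12 and 8.93 in DM and 7.33, 8.98, 8.77 and 9.65 in DM_AngIV, a log2 fold change of 0.04 ± 0.87, which was 3.56 without the arrays with atrial signal.

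With the mean atrial marker level of each array as a covariate, the matrix differences changed unevenly. Postn went from -0.69 to -0.24, Prelp from -0.54 to -0.23, Mfap5 from -0.57 to -0.27 and Loxl1 from -0.53 to -0.40, while Col3a1 stayed at -0.72 and Col15a1 was -0.47. The median of the matrix glycoproteins turned to 0.04, and was 0.11 without the arrays with atrial signal. The median of the collagens was -0.13 with the covariate and -0.09 without those arrays. Of 16 cardiac fibroblast markers, 11 had a negative value with a median of -0.09, which was 0.04 with the covariate.

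**Figure D4:**
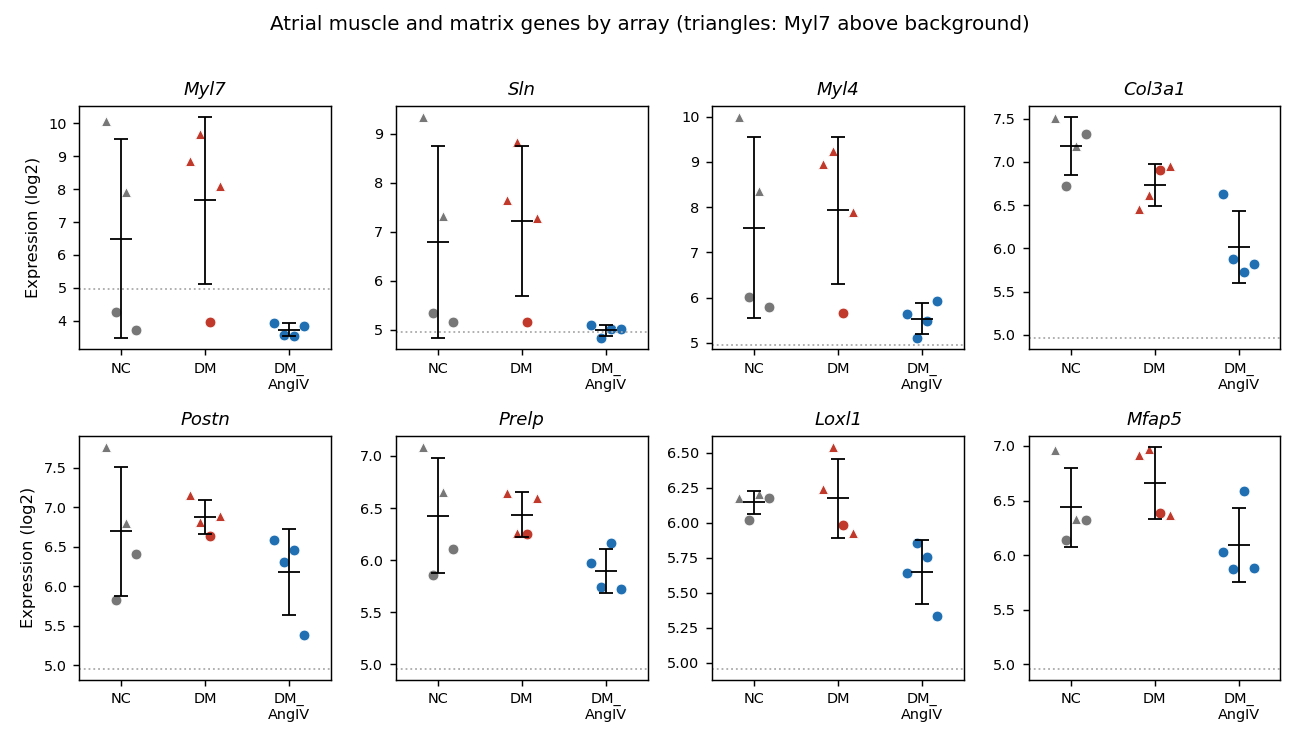
Log2 expression on each array of 3 atrial muscle genes and 5 matrix genes, with triangles for arrays on which Myl7 exceeded the background (dotted line) and bars for the mean and SD of 4 arrays. No DM_AngIV array is a triangle, against 2 NC and 3 DM arrays. For all 5 matrix genes the highest NC and DM points are triangles, but most DM points are triangles. The lowest DM point is a triangle too for Col3a1, Loxl1 and Mfap5.

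Proteases and growth factors of the matrix showed no common direction that held in each setting. Of 30 proteases and inhibitors, 24 had a negative value with a median of -0.11, which was 0.01 with the atrial covariate. Timp3, a matrix-bound protease inhibitor, measured 7.56, 7.24, 6.64 and 6.60 in DM and between 7.54 and 7.62 in DM_AngIV (0.57 ± 0.20, limma adjusted p = 0.617). Mmp3, stromelysin, had -0.51 ± 0.30, and 0.01 with the covariate. Tgfb1, the main fibrogenic growth factor, had -0.07 ± 0.13. Its receptor chain Tgfbr1 measured 5.59, 5.50, 5.71 and 5.30 in DM and 6.06, 5.96, 6.06 and 5.93 in DM_AngIV, higher without overlap by 0.48 ± 0.12 (adjusted p = 0.501). Tagln, a smooth muscle and myofibroblast actin-binding protein, had 0.49 ± 0.49.

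Genes of vessel walls had mostly small positive values. Of 17 smooth muscle and pericyte markers, 15 had a positive value and 3 were higher without overlap (2.81% of all genes, 4.85% of those above background). The median was 0.21, or 0.11 without the arrays with atrial signal. Acta2, the smooth muscle actin, had a difference of 0.0085 ± 0.36. Myh11, the smooth muscle myosin heavy chain, measured 5.37, 5.30, 5.36 and 4.85 in DM and 5.43, 5.48, 6.17 and 6.04 in DM_AngIV (0.56 ± 0.35, limma adjusted p = 0.739). Rgs5, a pericyte regulator of G protein signalling, and Abcc9, the regulatory subunit of vascular ATP-sensitive potassium channels, did not overlap either, at 0.29 and 0.21. Among 17 ventricular muscle markers, Mybpc3, the cardiac myosin-binding protein C, had 0.37 ± 0.12 and the Z-disc cap protein Tcap 0.37 ± 0.15, both without overlap. Myl2, Tnni3 and Actc1 had -0.01, 0.01 and -0.03.

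The renin-angiotensin system, from which the peptide derives, was close to level. Of 27 measured genes, 11 had a positive and 16 a negative value, with a median of -0.01. Agt, the precursor of all angiotensins, had 0.03 ± 0.15 and Agtr1a, the main angiotensin II receptor, 0.10 ± 0.13. Ace, which makes angiotensin II, measured 6.49, 6.45, 6.10 and 6.44 in DM and 7.09, 6.68, 6.59 and 6.28 in DM_AngIV (0.29 ± 0.17, limma adjusted p = 0.728). Agtrap, a protein that takes the type 1 receptor into the cell, had -0.21 ± 0.11. Enpep, the aminopeptidase that turns angiotensin II into angiotensin III, was not above background in either group. Klk1, a kinin-releasing kallikrein that was also below background, was the list's 1 member without overlap, at -0.46 ± 0.13 (adjusted p = 0.511).

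FoxO factors and their targets had values of both signs, more of them positive. Foxo1 itself measured 6.00, 5.76, 5.49 and 5.64 in DM and 5.72, 5.25, 5.73 and 5.72 in DM_AngIV, a difference of -0.12 ± 0.14 (limma adjusted p = 0.871) that was 0.11 without the arrays with atrial signal. Of 36 FoxO factors and targets, 25 had a positive value and none was without overlap, with a median of 0.07. This median was 0.12 with the atrial covariate and 0.21 without the arrays with atrial signal. Sesn1, a sestrin that restrains mTORC1, had 0.60 ± 0.18 and Trim63, the muscle ubiquitin ligase MuRF1, 0.49 ± 0.16. Pdk4, which blocks pyruvate oxidation, measured 10.31, 9.73, 9.18 and 8.58 in DM and 7.34, 9.57, 8.98 and 8.67 in DM_AngIV. Its difference was -0.81 ± 0.42. DM_AngIV replicate 1 lay below every DM array, and the other 3 DM_AngIV hearts lay inside the DM range. Ucp3, a mitochondrial carrier that fatty acids induce, measured 5.98, 8.58, 7.68 and 6.67 in DM_AngIV, with replicates 1 and 4 below all DM arrays, against DM values between 7.57 and 8.68 (-0.91 ± 0.43, adjusted p = 0.672).

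Autophagy genes had mostly small positive values. Of 44 measured genes, 32 had a positive value, with a median of 0.07, or 0.04 with the atrial covariate. Of the 44, 3 were higher without overlap, near the 4.85% of genes above background, of which 57.2% had a positive value. Rubcn, Rubicon, an inhibitor of autophagosome maturation, measured 5.42, 5.13, 4.68 and 4.94 in DM and 5.55, 5.70, 5.46 and 5.29 in DM_AngIV (0.46 ± 0.17, limma adjusted p = 0.62). Atg101, a subunit of the initiating ULK1 complex, had 0.33 ± 0.14. Atg4d, a protease that processes LC3-type proteins, had 0.31 ± 0.12 without overlap. Becn1, a subunit of the lipid kinase that starts autophagosomes, and Map1lc3b, the LC3 protein of their membrane, had 0.07 ± 0.10 and 0.15 ± 0.11, while Map1lc3a had -0.28 ± 0.11. Of 25 lysosomal genes, 21 had a positive value but with a median of only 0.04 and none without overlap, and the median was -0.02 without DM replicate 4. The proton pump subunit Atp6v1b2 had 0.23 ± 0.12 and the protease Ctss 0.20 ± 0.25.

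Genes that promote or prevent apoptosis were both mixed. Of 27 measured pro-apoptotic genes, 15 had a positive value with a median of 0.01, which turned to -0.02 under quantile normalization. Casp8, the initiator caspase of death receptors, measured 5.37, 5.07, 5.70 and 5.35 in DM and 5.28, 5.12, 4.68 and 4.80 in DM_AngIV (-0.40 ± 0.15, limma adjusted p = 0.62). Tnfrsf1a, the TNF receptor, had -0.26 ± 0.15. Of 20 anti-apoptotic genes, 11 had a positive value with a median of 0.04. Bcl2l1, which encodes BCL-xL, measured 7.22, 6.28, 6.04 and 5.97 in DM and 6.50, 7.27, 6.97 and 7.21 in DM_AngIV (0.61 ± 0.25, adjusted p = 0.629). Hspb1, the small heat shock protein HSP27, was lower without overlap, at 8.08, 8.20, 8.11 and 8.12 in DM and 7.85, 7.71, 7.66 and 7.67 in DM_AngIV. That difference of -0.40 ± 0.10 (adjusted p = 0.469) left DM_AngIV below NC too, whose values lay between 7.94 and 8.19. Bcl2 had -0.10 ± 0.14.

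Clock genes had the highest list median among the 27 process lists, at 0.22 with 14 of 20 members positive. Arntl, which encodes the activator BMAL1, measured 4.44, 4.21, 4.51 and 4.44 in DM and 3.52, 3.64, 3.55 and 4.10 in DM_AngIV, below background in both, against 5.57 to 5.94 in NC. The fitted difference from DM was -0.70 ± 0.14 (limma adjusted p = 0.253). Per2, a repressor that acts in the opposite phase, was higher without overlap by 0.52 ± 0.13 (adjusted p = 0.488), and the cell cycle kinase Wee1, a clock target, had 0.45 ± 0.14. Nr1d1, the repressor REV-ERB alpha, measured 6.71, 7.15, 7.77 and 7.50 in DM and 7.05, 6.83, 6.56 and 6.36 in DM_AngIV (-0.58 ± 0.23, adjusted p = 0.629). The hour of tissue collection was not given in the sources used here.

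Fkbp5 and some other genes split the DM hearts. Fkbp5, a chaperone that glucocorticoids induce, measured 8.69, 7.76, 6.02 and 6.24 in DM and 7.64, 8.69, 8.25 and 8.55 in DM_AngIV, with NC between 4.88 and 6.35. DM replicates 1 and 2 were at the DM_AngIV level and replicates 3 and 4 at the NC level, so the difference of 1.11 ± 0.47 (limma adjusted p = 0.643) came with wide overlap. It was 1.86 with the atrial covariate and 2.27 without the arrays with atrial signal. Timp3, Sesn1, Etv5 and Herpud1, chosen after their values were seen, were likewise higher on DM replicates 1 and 2 than on 3 and 4. Herpud1 is a protein of endoplasmic reticulum degradation that measured 9.75, 9.80, 9.39 and 9.37 in DM and 9.67, 10.14, 10.04 and 10.60 in DM_AngIV (0.53 ± 0.17, adjusted p = 0.585). The median of the 24 glucocorticoid-induced genes was 0.09 and had the opposite sign without DM replicate 3, DM replicate 4 or DM_AngIV replicate 4, down to -0.02.

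Insulin and growth signalling genes had values of both signs, and single genes of other lists are given beside them. Of 35 measured insulin and IGF signalling genes, 23 had a positive value, with a median of 0.06. Pik3r1, the regulatory subunit of PI3 kinase, measured 8.53, 8.49, 7.98 and 7.87 in DM and 8.38, 8.88, 8.67 and 8.98 in DM_AngIV (0.51 ± 0.17, limma adjusted p = 0.6), and Irs2, an insulin receptor substrate, had -0.35 ± 0.19. Dusp4, a phosphatase of MAP kinases, measured 4.28, 5.09, 3.90 and 3.80 in DM and 4.23, 5.15, 5.34 and 6.42 in DM_AngIV, with replicate 4 the highest and replicate 1 inside the DM range (1.02 ± 0.35, adjusted p = 0.611). Nr4a3, an immediate early nuclear receptor, varied within both groups, between 4.31 and 6.63 in DM and between 3.51 and 6.12 in DM_AngIV. Adm, adrenomedullin, a vasodilator peptide, had 0.66 ± 0.28, and Ednrb, the endothelin B receptor, -0.43 ± 0.20. Vcam1, an adhesion molecule of activated endothelium, had 0.59 ± 0.30 and the chemokine Ccl6 -0.41 ± 0.27, with overlapping values. Of 29 immediate early genes, 19 had a negative value (median -0.10). Of 47 genes of inflammatory cytokines and adhesion, 31 had a negative value (median -0.09, or -0.0017 with the atrial covariate). Of 33 genes of nitric oxide and vascular tone, 19 had a positive value (median 0.07).

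Fuel genes showed small differences by group. Of 33 genes that handle glucose and glycogen, 21 had a positive value, with a median of 0.12, or 0.05 under either atrial setting, the covariate or the omission of those arrays. For 3 of them DM_AngIV was higher without overlap (2.81% of all genes, 4.85% of those above background). For 1 it was lower (2.2% of all genes), Aldoc, a brain-type aldolase that was below background in both groups. Slc2a1, the glucose transporter GLUT1, measured 5.66, 6.05, 6.37 and 6.47 in DM and 6.89, 6.75, 6.38 and 6.92 in DM_AngIV (0.60 ± 0.17, limma adjusted p = 0.511), with a single DM value above the lowest DM_AngIV value. Hk2, a hexokinase that traps glucose in muscle, had 0.48 ± 0.20, and 0.25 with the atrial covariate. Of 41 genes of fatty acid uptake and oxidation, 17 had a positive value, with a median of -0.07, and 0.02 without the arrays with atrial signal. Of 74 genes of the respiratory chain, 52 had a negative value but the median was only -0.05. Ndufs7 and Ndufa7, both complex I subunits, had 0.25 ± 0.13 and -0.24 ± 0.12. Oxct1, which activates ketone bodies, measured 9.52, 9.37, 10.19 and 10.29 in DM and 10.38, 10.01, 10.01 and 10.05 in DM_AngIV (0.27 ± 0.18). The ketone body and lactate transporter Slc16a7 had -0.23 ± 0.16. In sterol and fatty acid synthesis, the desaturase Scd4 measured 7.69, 6.57, 6.67 and 5.98 in DM and 5.10, 5.93, 6.15 and 6.22 in DM_AngIV (-0.88 ± 0.32, adjusted p = 0.62). Hsd17b7, an enzyme of cholesterol synthesis, had -0.46 ± 0.15.

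Genes of heart strain, excitation and oxidant defence had mixed values. No member of the 28 heart strain genes was without overlap, while 2 of 35 channel genes were higher without overlap, and of 37 antioxidant genes 3 were higher and 1 lower (2.81% and 2.2% of all genes). Among genes above background these shares were 4.85% and 1.91%. Myh7, the myosin heavy chain of fetal and strained ventricle, measured 10.74, 11.58, 10.31 and 9.84 in DM and 10.98, 10.82, 11.44 and 11.57 in DM_AngIV (0.59 ± 0.28, limma adjusted p = 0.676). Ankrd1, a stretch-responsive titin partner, had 0.57 ± 0.28, and 1.14 without the arrays with atrial signal, and Nppb, the B-type natriuretic peptide, -0.44 ± 0.41. Kcnn2, a small-conductance calcium-activated potassium channel, measured 5.33, 5.56, 5.45 and 5.31 in DM and 6.07, 5.78, 5.97 and 5.94 in DM_AngIV, higher without overlap by 0.53 ± 0.14 (adjusted p = 0.511). Kcne1, a subunit of the slow delayed rectifier, was at least 1.16-fold lower, and Camk2b, a calcium-dependent kinase, was not above background in either group. Of 37 antioxidant genes, 23 had a positive value with a median of 0.04, which was -0.0028 under quantile normalization. The glutathione transferases Gstt1 and Gstm2 were higher without overlap, by 0.42 ± 0.13 and 0.35 ± 0.16, and Gsta3 had 0.62 ± 0.26. Gpx1, the main cytosolic glutathione peroxidase, was lower without overlap, with a log2 fold change of -0.27 ± 0.10 (adjusted p = 0.62).

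**Figure D5:**
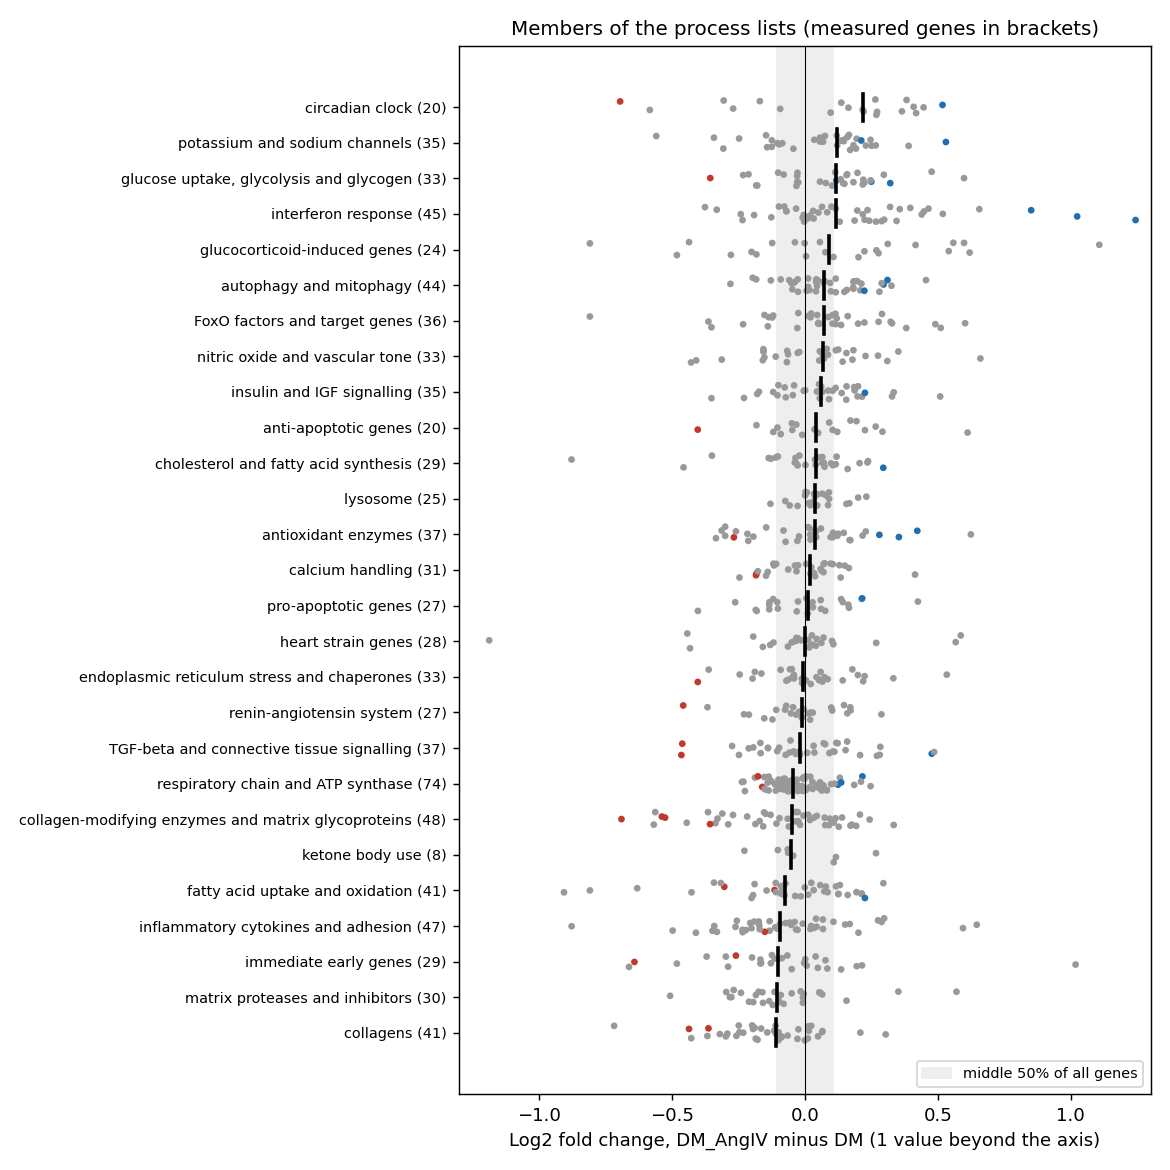
Each point is the log2 fold change, DM_AngIV minus DM, of 1 member of a process list, with black bars for list medians and a grey band from -0.11 to 0.11 for the middle 50% of all genes. Blue and red points are members whose groups did not overlap, and the circadian clock has the highest median, at 0.22, with Igtp, Irgm2 and Irgm1 at the right of the interferon response row.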

How the data were processed

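Mouse myocardium was measured on 12 arrays, 4 per group, with each array taken as 1 mouse. The log2 values were deposited by the authors as 1 table and were made by robust multi-array average (RMA) per the submitters' processing notes; its version and annotation were not given in the sources used here. RMA sets all arrays to 1 distribution, so a shift shared by all genes would not be seen. Of 29129 probe sets, 19572 had 1 gene symbol, 2634 gene probe sets had none and 6923 were controls. For 55 symbols with several probe sets the brightest was kept, which left 19505 genes.

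A linear model with a mean for each of the 3 groups was fitted to all 12 arrays with limma 3.58.1 in R 4.3.3 (lmFit, eBayes, two-sided). The difference uses the 4 DM_AngIV and 4 DM arrays, and the NC arrays add to the estimate of the spread. The threshold was a Benjamini-Hochberg adjusted p of 0.05 over all genes. The script was tested on simulated data. A fold is given as a lower bound where all 4 arrays of 1 group were at or below background.

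Named genes were the 10 largest positive and 10 largest negative differences without overlap above background, provisional names left out, then the 5 smallest p-values, the 2 largest differences in each of 27 process lists, and 19 genes fixed by name, 15 of which were measured. Some items are not reported here. In all, 46 lists held 1166 members, 1071 of them measured, and were described by counts and medians with no test. The rule, lists and members were chosen with earlier results of these data known, and the 4 interferon families and the promoter search after the values were seen. Alternatives covered the threshold, dim genes, probe sets, scaling, array weights, the variance prior, atrial signal, pairing and each array left out. Figures used matplotlib 3.10.9 in Python 3.11.15.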

Additional observations from a re-analysis of the deposited data

Results flagged for a closer look

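In 7 of the 158 group values of the 79 named genes, 1 array stood apart from the other 3 of its group by more than the 95% limit of Dixon's test for 4 samples. Chance alone flags about 1 in 20 such groups. Iigp1 was 5.81 on DM replicate 1, against 6.14 to 6.18 on the other DM arrays. Ace was 6.10 on DM replicate 3, against 6.44 to 6.49. On DM_AngIV replicate 1, Lpcat3 was 7.67 against 8.10 to 8.16, Col3a1 was 6.63 against 5.73 to 5.88 and Oxct1 was 10.38 against 10.01 to 10.05. Foxo1 was 5.25 on DM_AngIV replicate 2, against 5.72 to 5.73. Vcam1 was 5.40 on DM_AngIV replicate 4, against 6.32 to 6.48.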

How the results depend on the processing

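The count of 0 genes past the adjusted threshold held in every setting run except 2: it was 5 without DM_AngIV replicate 2 and 1 without DM_AngIV replicate 4, so leaving out 1 array gave 0 to 5. The 977 genes without overlap became 566 with genes above background only, 628 with genes above the median only, and 8917 with the atrial-signal arrays omitted, when 1 DM array remains; leaving out 1 array gave 977 to 2270. The 1459 genes with an unadjusted p below 0.05 became 959 above background only, and 1095 to 1948 with 1 array left out. Centring arrays on their median moved the split of genes without overlap to 651 higher of 1016, and quantile normalization to 462 of 880. With a replicate block, 0 genes passed and 1359 had an unadjusted p below 0.05; replicate numbers did not pair the arrays, as deviations of same-numbered DM and DM_AngIV arrays correlated between -0.04 and 0.05. Direction changed for 12 named genes. Without the arrays with atrial signal, Tnfrsf1a was 0.072, Oxct1 -0.083, Ccl6 0.0017, Foxo1 0.11, Enpep -0.22, Tgfb1 0.11, Bcl2 0.039 and Mybphl 0.44. With the atrial covariate, Mmp3 was 0.013, Enpep -0.020, Tgfb1 0.077 and Bcl2 0.0065. With 1 array left out, Agt ranged from -0.059 to 0.14, negative without DM replicate 3 or 4 or DM_AngIV replicate 2 or 4. Nppa ranged from -1.13 to 0.67, negative without DM replicate 3 or DM_AngIV replicate 2 or 4, and Ifng from -0.20 to 0.0023, positive without DM replicate 1. Without the arrays with atrial signal Nppa was 3.56. Of 99 genes, 22 had a value over 1.5 times larger there, such as Nr1d1 (-1.07), Slc41a3 (-1.26), Timp3 (0.94), Etv5 (1.27) and Jak2 (0.72), and 31 a value smaller by the same factor or reversed, such as Tgfbr1 (0.29), Tap1 (0.24), Gm12250 (0.29), Slc2a1 (0.36) and Tagln (0.04). With the atrial covariate, which was not fitted to the atrial markers themselves, 11 were larger and 20 smaller. The cause was not tested. Signal close to background limits what these arrays can show of dim genes.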
